A study of Mus musculus with 8 samples.

Results

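Hmgcs1, Idi1, Fdps, Fdft1, Sqle, Lss and Cyp51 encode 7 enzymes of the route by which cells build cholesterol, and their transcripts were compared between whole retinas of mice that lost the splicing regulator Rbfox2 as adults and whole retinas of control mice. The genes were chosen by name, with earlier results of these data known, as sterol genes under the control of the transcription factor encoded by Srebf2. They are 7 of the 17500 genes in the deposited table. Each of the 7 had a higher mean in the Rbfox2-/- retinas, by between 2.57% for Fdps and 13.4% for Idi1, and 0 of the 7 passed a false discovery rate of 0.05. The comparison asks whether the sterol pathway of the retina moved with the loss of Rbfox2.

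Cholesterol is made from acetyl-CoA through the mevalonate pathway, which first yields isoprenoid units, joins them into squalene, closes squalene into the ring compound lanosterol and then trims lanosterol to cholesterol. Transcription of these enzymes is tuned by sterol level: when sterol in the endoplasmic reticulum is low, the escort protein SCAP carries SREBP2 to the Golgi, where proteases release its active part, while the INSIG proteins hold the complex back when sterol is plentiful. The retina makes part of its own cholesterol and also takes up lipoprotein particles from the blood, and its photoreceptors keep renewing membrane discs that contain cholesterol.

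Each group held 4 mice. M833, M894, M896 and M898 were the controls, and the Rbfox2-/- mice were M893, M901, M902 and M909, all on the C57BL/6J background and 6 months old. The Rbfox2-/- mice carried floxed Rbfox2 alleles (Rbfox2 fl/fl) and 1 copy of a tamoxifen-activated Cre driven by the ubiquitin C promoter, so deletion was not restricted to a retinal cell type, while the controls were heterozygous Rbfox2 fl/+ animals of matched age. The labels call the deleted group Rbfox2 KD and give tamoxifen treatment for 4 months for every sample. By the paper, tamoxifen was given only over several consecutive days, and the retinas were taken 4 months after deletion was induced. The methods describe tamoxifen for the deleted mice and leave the treatment of the controls unclear. The second floxed allele, the Cre transgene and tamoxifen can therefore not be told apart in this comparison. Sex, as read below from Xist and Y-linked genes, was also not balanced between the groups. Each library is from 1 named mouse, and p-values measure the spread between these mice.

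Promoter sequence is shown for the members found in the RefSeq promoter table, because the pathway genes share a known way of being switched on through this stretch. The 4 matched members were Hmgcs1, Idi1, Lss and Cyp51. Each line gives the 250 bases before the RefSeq transcript start on GRCm38.p6, in the direction of transcription. Capitals mark a sterol regulatory element (TCACNCCAC) or a CCAAT box, in either orientation.
Hmgcs1, chr13:119690101-119690350, plus strand: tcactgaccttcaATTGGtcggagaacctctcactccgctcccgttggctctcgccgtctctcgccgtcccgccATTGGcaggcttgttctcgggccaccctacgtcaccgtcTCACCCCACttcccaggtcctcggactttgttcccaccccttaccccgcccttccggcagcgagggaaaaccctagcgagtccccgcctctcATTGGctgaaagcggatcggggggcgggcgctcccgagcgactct
Idi1, chr13:8885356-8885605, plus strand: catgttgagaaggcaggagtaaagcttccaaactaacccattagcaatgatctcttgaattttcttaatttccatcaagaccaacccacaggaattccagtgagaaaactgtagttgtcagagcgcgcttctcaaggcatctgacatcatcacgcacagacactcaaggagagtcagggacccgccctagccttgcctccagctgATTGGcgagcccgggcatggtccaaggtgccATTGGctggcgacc
Lss, chr10:76531355-76531604, plus strand: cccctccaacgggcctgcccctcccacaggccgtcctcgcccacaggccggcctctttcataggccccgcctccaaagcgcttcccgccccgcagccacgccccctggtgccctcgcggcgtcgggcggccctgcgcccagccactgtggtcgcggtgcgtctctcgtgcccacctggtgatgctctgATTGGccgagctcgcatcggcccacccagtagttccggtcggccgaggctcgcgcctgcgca
Cyp51, chr5:4104698-4104947, minus strand: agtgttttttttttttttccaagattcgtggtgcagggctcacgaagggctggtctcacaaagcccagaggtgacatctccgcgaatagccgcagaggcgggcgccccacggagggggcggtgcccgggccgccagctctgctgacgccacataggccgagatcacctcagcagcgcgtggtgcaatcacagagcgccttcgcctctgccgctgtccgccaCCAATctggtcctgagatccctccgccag

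The sterol regulatory element, a sequence that SREBP2 binds, was sought only as the letters TCACNCCAC. Among the matched members it was found in Hmgcs1 alone, as TCACCCCAC beginning 137 bases before the start. The letters TCACNCCAC were present in 1.05% of 32851 RefSeq promoter windows of this length. A CCAAT box, which binds the factor NF-Y that works beside SREBP2, was present in 4 of 4 matched members, against 33.8% of all windows. Hmgcs1 held 3 CCAAT boxes, Idi1 held 2, and Lss and Cyp51 held 1 each. In the GENCODE annotation Idi1 and Cyp51 begin upstream of the RefSeq start used here, and their CCAAT boxes lie inside the GENCODE gene. The GC box GGGCGG, a binding sequence of SP1, was also found in 4 of 4, against 32.7% of all windows. In the other enzymes of the pathway, 11 of 13 matched genes had a CCAAT box, 11 had a GC box and 0 had the exact TCACNCCAC letters. Of these 13 genes, 12 were tested for expression. A gene was counted here if any of its windows held the motif, so these counts cannot be set directly against the shares of single windows. All 3 motifs were sought on both strands, and no match overlapped another in these 4 windows. A match describes the letters and is not a binding site. Other forms of the sterol regulatory element were not searched for, so a missing match does not show that a gene lacks one.

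On GRCm38 the members lie at chr13:119690379-119708260 (Hmgcs1, plus strand), chr13:8885501-8892451 (Idi1, plus), chr3:89093588-89101959 (Fdps, minus), chr14:63145150-63179578 (Fdft1, minus), chr15:59315077-59331192 (Sqle, plus), chr10:76531588-76557138 (Lss, plus) and chr5:4081145-4104746 (Cyp51, minus). In the GENCODE annotation, Fdft1 overlaps Ctsb, Lss overlaps the antisense gene 4930483K19Rik and Cyp51 overlaps Akap9, each on the opposite strand and each with its own row in the deposited table. Whether strand was used in counting is not given in the sources used here, so reads in these overlaps may be divided between the partners. In the longest protein-coding transcript, the RBFOX binding hexamer TGCATG occurred 2 times for Hmgcs1, 2 times for Lss, 1 time for Idi1 and not for the other members. It is held by 56.1% of 14925 genes, a share not matched for transcript length. Introns, where the paper also places RBFOX binding elements, were not searched.

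The table held between 160630226 and 211283591 counts per mouse, so that 3 counts correspond to between 0.0144 and 0.0189 CPM (each count relative to the size of its library, the size scaled by edgeR's TMM factors). Rbfox2 itself stood at 56.5 ± 3.15 CPM in the Rbfox2-/- retinas against 149.6 ± 5.39 CPM in controls (mean ± SD, n = 4 each), a log2 difference of -1.41 (SE 0.046, adjusted p = 5.51e-07, edgeR quasi-likelihood test with Benjamini-Hochberg adjustment over 16797 tested genes). M901 and M902 stood apart from the other 6 mice on the first principal component, which held 50.0% of the variance, and M909 on the next, with 18.7%. M901 and M902 also had high counts of Xist and a summed level of 4 Y-linked genes of 0.659 and 0.611 CPM, against 158 to 187 CPM in the other mice. The labels give no sex. By these genes M901 and M902, both Rbfox2-/-, read as female and the other 6 mice, among them every control, as male. The members are given below with and without M901 and M902.

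Hmgcs1 encodes the cytosolic HMG-CoA synthase, which makes the precursor of mevalonate. Its level in the Rbfox2-/- retinas was 161 CPM in M901, 157 in M909, 149.5 in M893 and 140.0 in M902, and in the controls 146 in M896, 144 in M898, 136 in M894 and 133 in M833. The 3 Rbfox2-/- mice other than M902 lay above every control, and M902 lay inside the control range. The mean was 152 ± 9.30 CPM against 139.9 ± 6.28 CPM, a log2 difference of 0.12 (SE 0.049, 95% interval 0.0093 to 0.23), with an unadjusted p of 0.0362 and an adjusted p of 0.350 in edgeR with Benjamini-Hochberg adjustment. Hmgcs1 thus did not pass the threshold once all tested genes were taken into account.

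Idi1 encodes isopentenyl-diphosphate isomerase, which balances the pool of the activated isoprenoid units. It was measured at 7.49 CPM in M901, 7.16 in M909, 6.75 in M902 and 6.62 in M893, and at 6.60 in M898, 6.41 in M896, 6.02 in M833 and 5.68 in M894. Idi1 was the 1 member of 7 whose groups did not overlap, although the lowest Rbfox2-/- mouse, M893, and the highest control mouse, M898, were almost level. On CPM scaled to total counts alone, and so on the deposited FPKM, M898 lay above M893, and 0 of 7 members had separate groups. Among all tested genes, 7.03% had groups that did not overlap, 3.64% with the Rbfox2-/- group higher. The means were 7.01 ± 0.397 and 6.18 ± 0.411 CPM, a log2 difference of 0.18 (SE 0.073, 95% interval 0.020 to 0.34), with an unadjusted p of 0.0316, an Benjamini-Hochberg adjusted p of 0.340 from edgeR, and an exact two-sided permutation p of 0.0286, the smallest that 4 mice against 4 allow.

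Fdps makes farnesyl diphosphate, where the sterol route parts from the dolichol, ubiquinone and prenylation routes, and Fdft1 is the squalene synthase that commits farnesyl units to sterol. Fdps was measured at 38.4 CPM in M901, 38.1 in M893, 36.3 in M902 and 36.2 in M909, and at 37.1 in M896, 36.8 in M898, 36.0 in M894 and 35.5 in M833. Fdft1 was measured at 89.7 CPM in M901, 85.8 in M893, 78.5 in M902 and 76.8 in M909, and at 79.8 in M896, 79.0 in M898, 76.4 in M894 and 72.7 in M833. In both genes M901 and M893 were the highest of the 8 mice, while M902 and M909 fell among the controls. The ranges of the 8 mice were narrow for Fdps, from 35.5 to 38.4 CPM. The log2 difference was 0.037 (SE 0.038, unadjusted p = 0.359) for Fdps and 0.10 (SE 0.054, unadjusted p = 0.0863) for Fdft1, with adjusted p of 0.718 and 0.440 in the same edgeR test.

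Sqle is squalene epoxidase, the first oxygen-requiring step. It was measured at 63.6 CPM in M901, 60.2 in M909, 59.97 in M893 and 56.2 in M902, and at 60.3 in M898, 59.3 in M896, 58.0 in M894 and 53.5 in M833. M901 alone lay above the controls, and M902 was lower than all controls but M833. The log2 difference of 0.055 (SE 0.050, 95% interval -0.056 to 0.17) was no larger than the spread between mice, with an adjusted p of 0.670 in edgeR with Benjamini-Hochberg adjustment.

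Lss, the cyclase that folds oxidized squalene into lanosterol, had the tightest Rbfox2-/- values of the 7 relative to its level. It was measured at 46.8 CPM in M909, 45.9 in M902, 45.6 in M893 and 44.9 in M901, and at 45.4 in M896, 43.1 in M898, 42.8 in M894 and 42.1 in M833. Here M909 was highest and M901, first in each of the other 6 genes, was the lowest of the Rbfox2-/- mice, with the control mouse M896 above it. The log2 difference was 0.079 (SE 0.038, 95% interval -0.0050 to 0.16, unadjusted p = 0.0627), with an adjusted p of 0.401 in edgeR with Benjamini-Hochberg adjustment.

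Cyp51, the lanosterol demethylase, was measured at 71.6 CPM in M901, 69.6 in M909, 67.4 in M893 and 62.6 in M902, and at 66.2 in M896, 65.3 in M833, 62.5 in M898 and 58.4 in M894. The pattern was that of Hmgcs1, with 3 of 4 Rbfox2-/- mice above every control and M902 inside the control range. The log2 difference was 0.10 (SE 0.053, 95% interval -0.015 to 0.22, unadjusted p = 0.0807), with an adjusted p of 0.431 in edgeR with Benjamini-Hochberg adjustment.

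**Figure D1:**
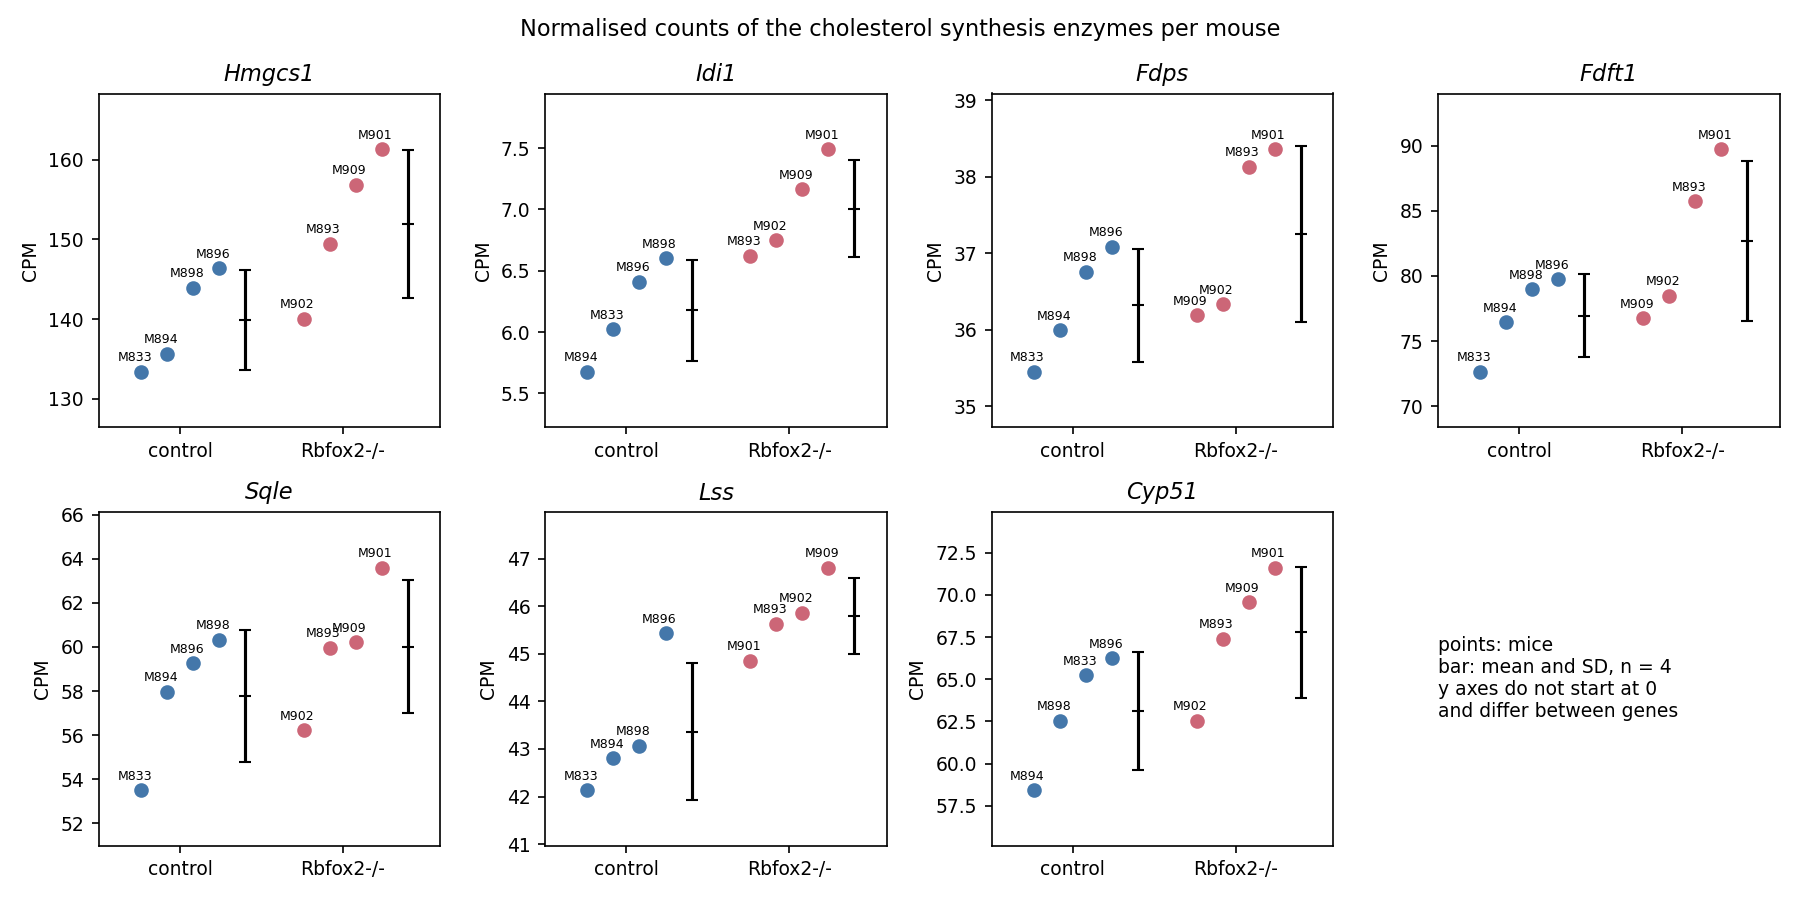
Each panel plots 1 enzyme gene, with CPM on the vertical axis (axes do not start at 0 and differ between genes) and 1 labelled point per mouse, control on the left and Rbfox2-/- on the right; the bar beside each group is the mean and SD of 4 mice. Idi1 alone shows no overlap between groups, and M901 is the highest mouse in every panel except Lss.

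All 7 members passed the filter on low counts. Counted together, 0 of 7 members passed a false discovery rate of 0.05, where 0.0655% of all 16797 tested genes did (11 genes). At an unadjusted p under 0.05 the count was 2 of 7 (Hmgcs1 and Idi1), where 13.3% of all tested genes reached it and 6.42% did so with the Rbfox2-/- group higher. All 7 log2 differences were above 0, where 50.7% of tested genes were, and their median was 0.10 against 0.0016 over all tested genes. The members vary together between mice, so 7 positive values are not 7 independent observations. DESeq2, the edgeR likelihood ratio test and limma-voom also called 0 of 7 at a false discovery rate of 0.05. The 95% intervals bound the size of what could have been missed: the upper end was 26.9% above the control mean for Idi1, 17.2% for Hmgcs1 and 8.78% for Fdps, and the lower end lay between -3.83% for Sqle and 1.37% for Idi1.

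The direction did not rest on the mice that stood apart, whereas the count at an unadjusted p under 0.05 did. Without M901 and M902 the log2 difference was 0.13 for Hmgcs1 (unadjusted p = 0.0469), 0.16 for Idi1 (unadjusted p = 0.146), 0.12 for Cyp51, 0.089 for Lss, 0.075 for Fdft1, 0.054 for Sqle and 0.030 for Fdps, and Hmgcs1 was the 1 member left under 0.05. The count went to 0 when control M833, control M894 or M901 was left out alone, to 1 without M909, and reached at most 3 over all the single mice left out. Some sizes also rested on 1 mouse. Sqle was 0.017 without control M833, 0.025 without M901 and 0.084 without M902, Fdps was 0.022 without M833 and 0.021 without M901, Fdft1 was 0.061 without M901, and Cyp51 was 0.068 without control M894. For Hmgcs1, Idi1 and Lss the log2 difference ran from 0.088 to 0.16, from 0.14 to 0.21 and from 0.062 to 0.10 as each mouse in turn was left out.

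The mean log2 level over the 7 genes, relative to the control mean, gives 1 value per mouse. It was 0.17 in M901, 0.098 in M909, 0.093 in M893 and 0.028 in M902, and -0.045 in M833, -0.044 in M894, 0.055 in M896 and 0.034 in M898. M902 lay below the controls M896 and M898, so the groups overlapped, and the spread was alike in both (SD 0.056 and 0.052). M901 was the highest of the 8 mice in 6 of the 7 genes, M833 the lowest in 5 and M894 in the other 2. M901 and M902, which stood together on the first principal component, were the highest and the lowest Rbfox2-/- mice for this pathway.

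Across the 8 mice, Pearson's r between pairs of members ran from 0.41 to 0.98 over 21 pairs, with a median of 0.68. Fdps and Fdft1, which act in succession, gave the highest value, 0.98, and it was again 0.98 after each group was centred on its own mean. Lss was the least like the rest, and its centred r was -0.033 with Fdft1 and 0.083 with Fdps, while the median centred r of all pairs was 0.40. These values describe 8 libraries that share their scaling and the group difference, and no test was made on them.

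**Figure D2:**
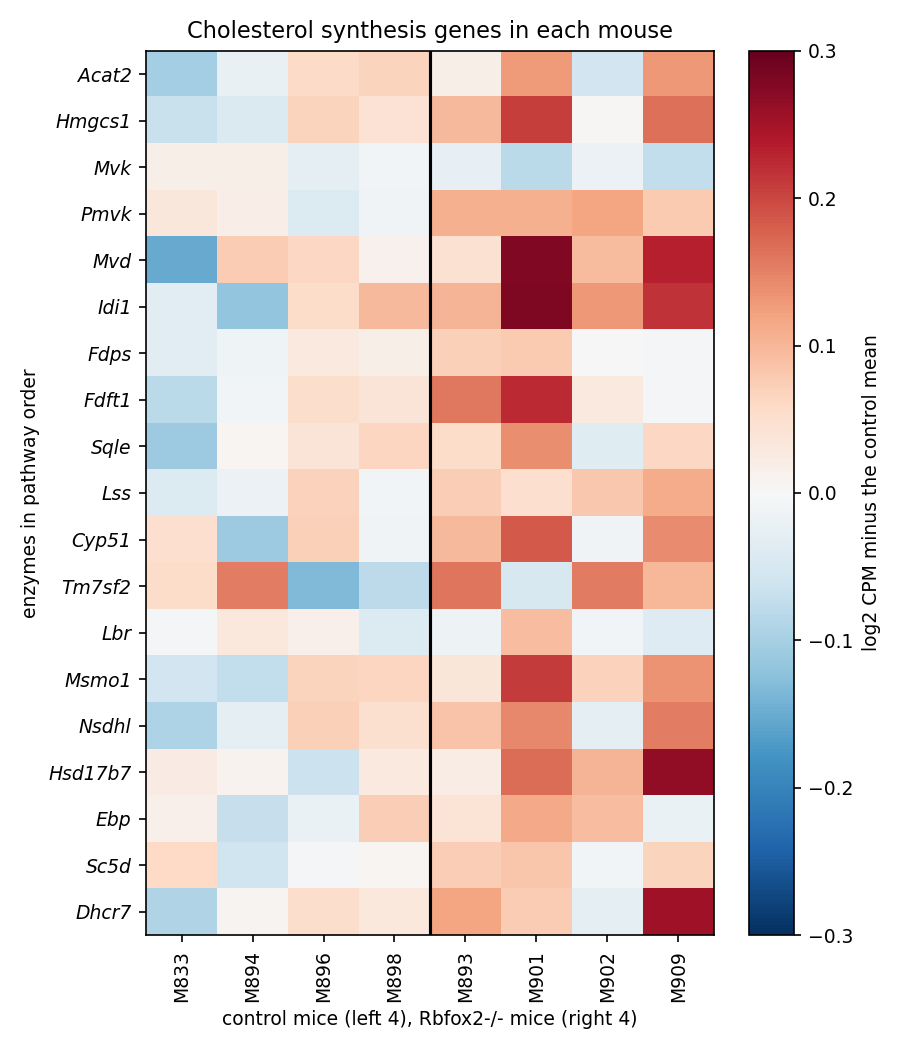
Rows are 19 enzymes of the pathway in reaction order, columns are the 4 control (left) and 4 Rbfox2-/- (right) mice, and colour gives log2 CPM minus the control mean. M901 and M909 show the most red along the pathway, M902 is paler, and Mvk runs opposite to its neighbours.

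Levels between genes were compared per length, as the deposited FPKM (counts scaled by gene length and by the total of the library). In controls the order was Hmgcs1 with 40.0 ± 2.20 FPKM, Fdft1 with 27.0 ± 1.45, Fdps with 25.01 ± 0.801, Sqle with 21.2 ± 1.37, Cyp51 with 14.6 ± 0.737, Lss with 14.1 ± 0.578 and Idi1 with 2.17 ± 0.157 (SD, n = 4). Fdft1 and Fdps overlapped in range, as did Cyp51 and Lss, and these neighbours cannot be ordered from these mice, while the other steps exceeded the spread. Hmgcs1 was higher than 90.6% of all genes in the table and Idi1 higher than 34.7%. In these values Idi1 lay 6.49-fold below Lss, its neighbour in the order. When length was taken instead as all merged exons of the gene in GENCODE, Cyp51 moved to place 3 and Fdps to place 5, and the control means of Lss and Idi1 became 4.04 and 1.77 FPKM, so both the middle of the order and the distance of Idi1 from Lss depend on the gene model.

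**Figure D3:**
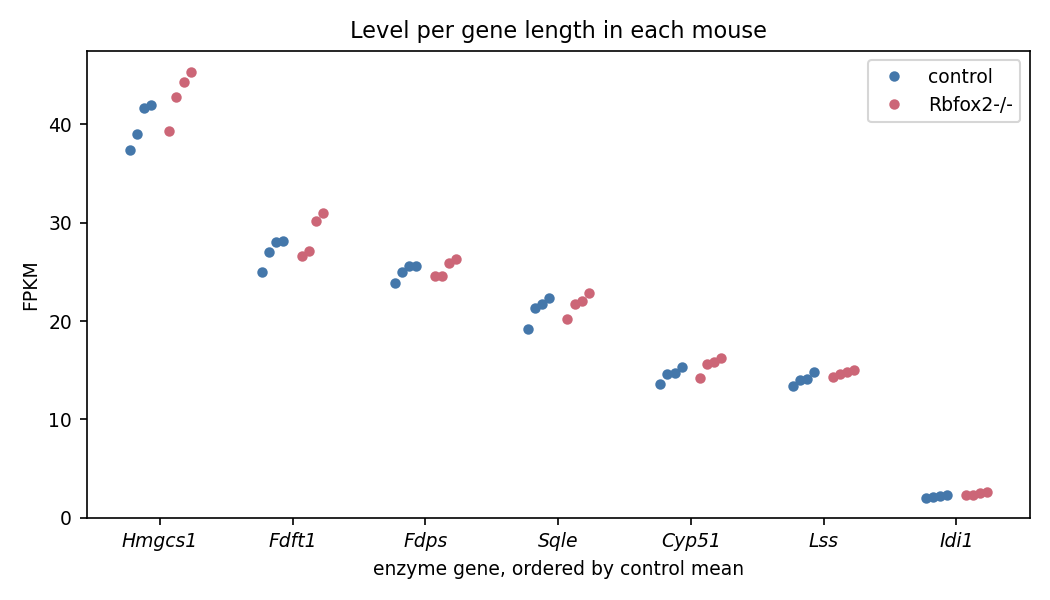
FPKM (vertical axis, from 0) is plotted for each of the 7 genes, ordered by control mean, with 1 point per mouse in blue for control and red for Rbfox2-/-. Hmgcs1 is highest at 37.4 to 45.3 FPKM and Idi1 lowest at 2.005 to 2.58 FPKM, and the group difference within a gene is small beside the steps between most genes.

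The other enzymes of the pathway mostly had slightly higher means in the Rbfox2-/- retinas, with 0 of 12 tested passing a false discovery rate of 0.05. At an unadjusted p under 0.05 there were 3 of 12, each higher in the Rbfox2-/- retinas, where 13.3% of all tested genes reached this p and 6.42% did so with a higher level: Pmvk, the kinase after mevalonate kinase, Mvd, which makes isopentenyl diphosphate, and Hsd17b7, a ketoreductase of the demethylation steps. DESeq2, the edgeR likelihood ratio test and limma-voom called 0 of 12 at a false discovery rate of 0.05. The log2 difference was above 0 in 11 of 12, with a median of 0.090. Together with the 7 members, 18 of 19 tested enzymes had a positive log2 difference, where 50.7% of all tested genes did. An unadjusted p under 0.05 was reached by 5 of 19, where 13.3% of all tested genes did. Both lists were chosen with earlier results of these data known, and several of these enzymes vary together between mice. The 19 are therefore not independent observations, and these counts are a description.

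Pmvk had groups that did not overlap: 33.1 CPM in M902, 32.9 in M901, 32.8 in M893 and 32.2 in M909 against 31.2 in M833, 30.9 in M894, 30.3 in M898 and 29.6 in M896. Unlike the members, it had M902 highest and M896 lowest. Its log2 difference was 0.10 (SE 0.036, unadjusted p = 0.0165, edgeR adjusted p = 0.283). Mvd was measured at 19.1 CPM in M901, 18.5 in M909, 16.8 in M902 and 16.3 in M893 against 16.6 in M894, 16.4 in M896, 15.9 in M898 and 14.2 in M833, with a log2 difference of 0.16 (SE 0.070, unadjusted p = 0.0414). Hsd17b7 was highest in M909, at 16.3 CPM, and lowest in M896, at 13.0 CPM, with a log2 difference of 0.14 (SE 0.059, unadjusted p = 0.0368).

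Mvk, mevalonate kinase, was the 1 enzyme with a negative value. It was measured at 22.5 CPM in M902, 22.3 in M893, 21.6 in M909 and 21.5 in M901 against 23.0 in M833, 23.0 in M894, 22.6 in M898 and 22.3 in M896. The means were 21.96 ± 0.500 and 22.71 ± 0.345 CPM, further apart than the SD of either group. M901 and M909 lay below every control, while M902 and M893 lay inside the control range. The log2 difference was -0.049 (SE 0.039, unadjusted p = 0.234 in edgeR). Mouse by mouse Mvk ran opposite to the members, with r = -0.94 against their mean over 8 mice as a description. M901 was its lowest mouse and M833 its highest. Among the late enzymes, Lbr, a nuclear membrane protein with sterol reductase activity, was measured at 27.1 ± 1.11 against 26.9 ± 0.577 CPM (log2 difference 0.0082).

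**Figure D4:**
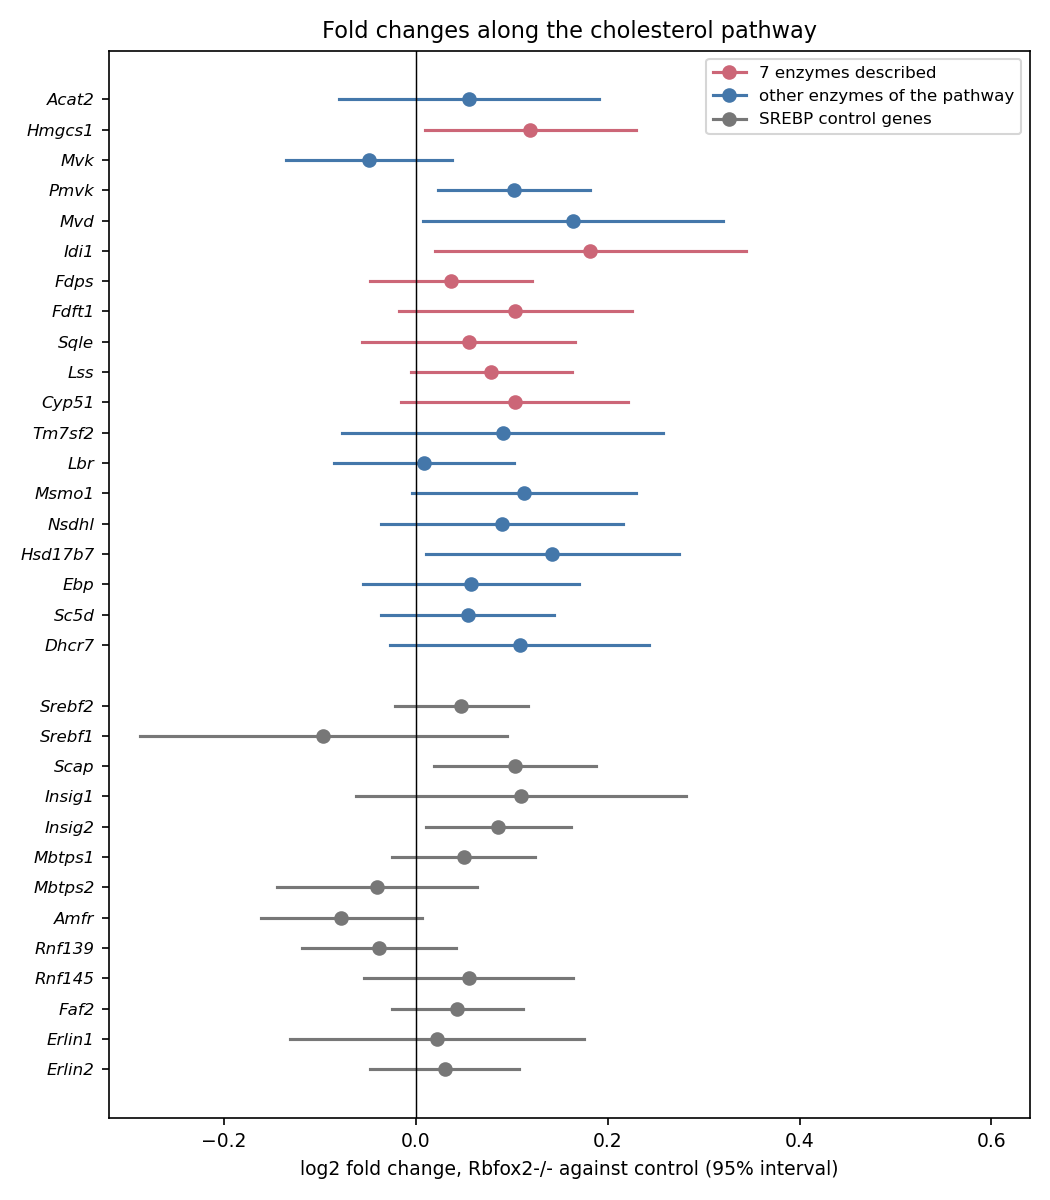
Points are edgeR log2 fold changes of Rbfox2-/- against control and lines their 95% intervals, for the 7 enzymes described (red), the other 12 enzymes (blue) and 13 genes that control SREBP (grey), n = 4 mice per group. Nearly all enzyme points lie right of 0 and most intervals cross it; Mvk is the 1 enzyme to the left.

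Among 13 genes that set SREBP activity, 0 passed a false discovery rate of 0.05 by edgeR, DESeq2, the likelihood ratio test or limma-voom, 2 had an unadjusted p under 0.05, a share close to the 13.3% of all tested genes, and 9 were above 0, where 50.7% of tested genes were, with a median log2 difference of 0.043. Srebf2, which encodes the factor itself, was measured at 243 CPM in M901, 242 in M893, 241 in M909 and 235 in M902 against 239.9 in M896, 230.8 in M894, 230.3 in M833 and 229 in M898. The 3 Rbfox2-/- mice other than M902 lay above every control, as for Hmgcs1. The difference was small, 0.047 on the log2 scale (SE 0.031, unadjusted p = 0.157).

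Scap, the escort of SREBP, had a log2 difference of 0.10 (SE 0.038, unadjusted p = 0.0217), at 214, 220.3, 227 and 212 CPM in M893, M901, M902 and M909 against 213, 204, 199.98 and 196 CPM in M833, M894, M896 and M898. Only M833 among the controls reached into the Rbfox2-/- range, and without M901 and M902 the log2 difference was 0.065. Insig2, a retention protein, was measured at 38.0, 37.3, 37.7 and 36.7 CPM against 34.9, 35.1, 36.0 and 35.1 CPM in the same order of mice, with no overlap, and its log2 difference was 0.086 (SE 0.034, unadjusted p = 0.0301). Insig1, a retention protein whose gene SREBP itself switches on, spread more widely, from 86.4 CPM in M833 to 117 CPM in M901, and its log2 difference was 0.11 (SE 0.077, unadjusted p = 0.186), which became 0.043 without M833 and 0.067 without M901. Srebf1, the factor more tied to fatty acid genes, was 211.3 ± 30.7 CPM against 226 ± 7.36 CPM, with 3 Rbfox2-/- mice below the controls and 1 above. Its log2 difference was -0.096, and it ranged from -0.20 without M909 to -0.039 without M901, with -0.056 without M902.

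Neighbouring routes were described from lists of their own. Of 11 genes that draw on farnesyl diphosphate for dolichol, ubiquinone or prenylation, 1 had an unadjusted p under 0.05, where 13.3% of all tested genes did. It also was the 1 gene of the 11 whose groups did not overlap, where 3.64% of all tested genes were separate with the Rbfox2-/- group higher. That gene was Dhdds, a subunit of the dolichol-chain synthase, at 74.4 ± 1.34 against 69.7 ± 1.11 CPM (log2 difference 0.094, SE 0.030, unadjusted p = 0.0110). Its partner subunit Nus1 was 43.3 ± 2.03 against 40.5 ± 1.91 CPM (log2 difference 0.096, SE 0.049, unadjusted p = 0.0781), and its log2 difference was 0.063 without M894 and 0.035 without M901 and M902. The median of the 11 was 0.074.

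Of 19 genes for lipoprotein uptake and movement of cholesterol inside the cell, 7 were above 0, where 50.7% of all tested genes were, with a median of -0.032. Scarb1, a receptor for high-density lipoprotein, was the 1 with an unadjusted p under 0.05, where 13.3% of all tested genes reached this p. It was measured at 165.5, 172, 172 and 173 CPM in M893, M901, M902 and M909 against 159, 161, 155 and 141 CPM in M833, M894, M896 and M898. Its groups did not overlap, and its log2 difference was 0.15 (SE 0.044, unadjusted p = 0.00697, edgeR adjusted p = 0.239). Lrp8, a lipoprotein receptor of neurons, was 110.03 ± 3.58 against 104 ± 5.64 CPM (log2 difference 0.080, unadjusted p = 0.0946), with a log2 difference of 0.046 without M898 and 0.052 without M901 and M902.

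Of 12 genes for export, esterification and oxysterol sensing, 5 were above 0, where 50.7% of all tested genes were, and the median was -0.035. Nr1h3, the oxysterol receptor LXR alpha, was measured at 4.15, 4.71, 4.08 and 4.33 CPM in M893, M901, M902 and M909 against 3.39, 3.59, 3.17 and 3.26 CPM in M833, M894, M896 and M898. Every Rbfox2-/- mouse was above every control, and the log2 difference was 0.37 (SE 0.083, unadjusted p = 0.00133, edgeR adjusted p = 0.156); DESeq2 called it at a false discovery rate of 0.05 and edgeR's likelihood ratio test and limma-voom did not. Cyp27a1, a mitochondrial sterol hydroxylase, had a log2 difference of -0.21 (unadjusted p = 0.0153), which also missed the adjusted threshold.

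Of 16 fatty acid synthesis genes, 11 were above 0, where 50.7% of all tested genes were, with a median of 0.035. By edgeR's quasi-likelihood test, 0 passed a false discovery rate of 0.05. At an unadjusted p under 0.05 there were 5, 4 higher and 1 lower, where 6.42% of all tested genes were higher and 6.87% lower at this p. Acacb, an acetyl-CoA carboxylase linked to control of fat oxidation, was measured at 4.30, 4.14, 3.98 and 4.98 CPM in M893, M901, M902 and M909 against 5.76, 7.50, 6.75 and 8.17 CPM in M833, M894, M896 and M898. It was lower in every Rbfox2-/- mouse than in any control (log2 difference -0.69, unadjusted p = 0.000139, edgeR adjusted p = 0.0837). Scd2, a fatty acid desaturase, was measured at 665, 646, 611 and 663 CPM against 568, 544, 573 and 563 CPM in the same order (log2 difference 0.20, unadjusted p = 0.000525). DESeq2 called 4 genes of the list at a false discovery rate of 0.05 (Acacb, Lpin1, Scd1 and Scd2), the edgeR likelihood ratio test 3 (Acacb, Scd1 and Scd2) and limma-voom 0.

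Among 10033 genes outside the gene lists with a mean of at least 10 CPM, the 5 whose log2 levels followed the members' mean most closely over the 8 mice were Syn3 (r = 0.95), Rpsa (r = 0.93), Mcm2 (r = 0.92), Wsb2 (r = 0.92) and Dennd5a (r = 0.91). Within the gene lists the closest were Msmo1 (r = 0.93, rho = 0.76) and Nsdhl (r = 0.91, rho = 0.98), both enzymes that act after Cyp51 and both closer than Dennd5a, followed by the desaturase Scd1 (r = 0.89, rho = 0.90), Elovl6 (r = 0.89, rho = 0.90) and Srebf2 (r = 0.87, rho = 0.83). These are the top of many values over 8 mice and are given as a description.

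Whole retina mixes many cell types, and in bulk samples fewer cells of a type and less RNA per cell cannot be told apart. The summed level of 9 Müller glia markers was 5627 to 6123 CPM in the Rbfox2-/- retinas and 6184 to 6976 CPM in controls, without overlap, and 4 of the 9 had an unadjusted p under 0.05, each lower, where 6.87% of all tested genes were, among them Glul (log2 difference -0.17), an enzyme of glutamate recycling, and Car14 (log2 difference -0.44), a carbonic anhydrase. DESeq2 called Glul and Car14 at a false discovery rate of 0.05, and edgeR's quasi-likelihood test did not. The other 5 of the 9 did not reach an unadjusted p under 0.05 in edgeR, and 3 of the 9 had a log2 difference above 0 (Rlbp1, Aqp4 and Kcnj10). Glul made up the largest share of the sum, at 3002 CPM against 3384 CPM. The sum of 6 cone markers was 911 to 1037 CPM against 848 to 864 CPM, also without overlap. Of the 6, 5 had a log2 difference above 0, where 50.7% of all tested genes did. The lowest p was that of Gngt2, at 50.8 against 42.4 CPM without overlap (log2 difference 0.26, edgeR unadjusted p = 5.07e-05, adjusted p = 0.0568). Opn1sw, the short-wavelength opsin, was 426 against 354 CPM (log2 difference 0.26, unadjusted p = 0.00310). Opn1mw, the middle-wavelength opsin, was the 1 cone marker below 0, at 90.6 against 105.9 CPM (log2 difference -0.23, unadjusted p = 0.0379). The sum of 8 rod markers was 64304 to 69893 CPM against 61966 to 66660 CPM. Markers of pigment epithelium and ciliary body, tissue next to the retina, summed to 49.0 to 142 CPM against 66.5 to 212 CPM, and 0 of the 8 were at 0 in any mouse. In that list 7 of 8 had a log2 difference below 0, with a median of -1.06. An unadjusted p under 0.05 was reached by 3, each lower (Tyrp1, Pmel and Best2), where 6.87% of all tested genes were lower at this p. Ttr, the most abundant of the list, had a log2 difference of 0.39. The part of these differences in the values of the enzymes was not tested.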

How the data were processed

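Poly(A) RNA from whole retina of 8 mice was sequenced, and the authors deposited 1 table with gene counts and FPKM per mouse. Per the methods, reads were aligned to mm10 with STAR and unique reads were counted with HTSeq. The deposited FPKM equal count over gene length and table total. From the counts, edgeR 4.0.16 (filterByExpr, TMM, quasi-likelihood F test, 4 against 4 mice, no covariate, Benjamini-Hochberg adjustment) tested 16797 of 17500 genes in R 4.3.3; calls were at a false discovery rate of 0.05. DESeq2 1.42.0, limma-voom 3.58.1, sva 3.50.0, other scalings and filters and omission of each mouse were alternatives. Counting error at the lowest count was below the spread between mice for each of the 7 enzymes. It still was a part of that spread, at 1.17% against 1.76% for Lss in Rbfox2-/- mice and 1.32% against 2.03% for Fdps in controls. Fits were tested on simulated data. Per-mouse columns not used numbered 16 (adjusted counts and ratios), as were the authors' own fold changes and p-values. The members and gene lists were chosen with earlier results of these data known. Genes named by rule were the 7 members, Rbfox2, Xist, the other enzymes and SREBP control genes, the 2 lowest p-values of each other list, and the 5 genes outside the lists most like the members' mean; Scd1, Lpin1, Elovl6 and some cell type markers were named after their values were seen. Promoters are RefSeq, GRCm38.p6; positions are GENCODE M21, GRCm38. The motif and hexamer searches were added after the files were seen. Some genes of the pathway are not reported here.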

Additional observations from a re-analysis of the deposited data

Results flagged for a closer look

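In 3 of 64 groups of 4 mice, 1 mouse lay far from the other 3 by Dixon's criterion, and about 3.2 such groups would arise by chance (1 in 20). Srebf2 was 239.904 CPM in control M896, against 229.485 to 230.76 CPM in the other controls. Srebf1 was 214.937 CPM in control M833, against 228.883 to 230.456 CPM in the other controls. Mbtps1, a protease that cuts SREBP, was 153.229 CPM in Rbfox2-/- mouse M902, against 145.805 to 146.835 CPM in the other Rbfox2-/- mice. None of the 7 enzymes had such a mouse in either group.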

How the results depend on the processing

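The 7 enzymes had a positive log2 difference in 119 of 119 refits over 17 alternatives, 0 of them at a false discovery rate of 0.05 (lowest adjusted p 0.234, Fdft1 without M909). Genes called at that rate were 11 in the reported fit, 460 with DESeq2, 164 with the edgeR likelihood ratio test, 5 with 1 surrogate variable, 1 without M901 and M902, and 5 to 35 without 1 mouse. Enzymes at an unadjusted p under 0.05 were 2, then 1 with the likelihood ratio test, 1 with upper-quartile scaling, 1 without M901 and M902, 0 with the surrogate variable, and 0 to 3 without 1 mouse.

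By list, genes at an unadjusted p under 0.05 ranged over the alternatives from 0 to 4 among the other enzymes (3 reported; 0 with the likelihood ratio test, 1 with upper-quartile scaling, 1 without control M833, M901 or M909) and from 0 to 4 among the SREBP control genes (2 reported; 0 without control M898 or M902, 1 without control M896, M893 or M901, 4 without M909). The uptake list gave 0 to 5 (1 reported; 3 without M833, 2 without M894, 5 without M909) and the isoprenoid list 0 to 3 (1 reported; 2 without M833, 3 without M909), and the isoprenoid median was -0.0058 with the surrogate variable. Some values changed sign, and not all of these were near 0. In the reported fit Lbr was 0.0082, Erlin1 0.022, Srebf1 -0.096 and Xist 8.80 on the log2 scale. Without 1 mouse, Erlin1 ranged from -0.026 to 0.055 and Lbr from -0.022 to 0.024 on the log2 scale. Without M901 and M902, Lbr was -0.029, Erlin1 -0.048 and Srebf1 0.046. With the surrogate variable Lbr was -0.032, Erlin1 -0.049, Srebf1 0.065 and Xist -0.085. The causes were not tested. The lowest count of the enzymes was 1004 (Idi1, control M894), and the spread between the 4 mice of a group exceeded the counting error. No paired analysis was possible because the labels name single mice and give the groups no shared replicate numbers.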
